A study of Mus musculus with 8 samples.

Results

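Ribosomal protein genes encode the proteins that, together with ribosomal RNA, make up the cytosolic ribosome. The large (60S) subunit carries the Rpl proteins and the stalk proteins Rplp0, Rplp1 and Rplp2, which recruit elongation factors, and the small (40S) subunit carries the Rps proteins. Their mRNAs are abundant and short and begin with a run of pyrimidines (the 5′ terminal oligopyrimidine, or TOP, motif) through which mTORC1 signalling controls their translation, and mammalian genomes carry many processed copies of them. In the liver they serve the production of plasma proteins and growth after injury.

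The members were the protein-coding rows of the deposited count table whose symbol has the form of a ribosomal protein name (Rpl, Rps or Rplp, a number and at most a short suffix). There were 82 of them among 56748 rows, of which 48 carry the Rpl prefix, 31 the Rps prefix and 3 the Rplp prefix. Rpsa, Fau and Rack1, which also encode ribosomal proteins, and Rpl36al fall outside this form and are described separately. To be tested, a gene had to pass edgeR's filter on low counts by group, which 79 members and 14279 genes in all did. Rpl10l had 0 counts in each of the 8 libraries, and Rpl3l and Rpl39l, tissue-restricted paralogues, had 15 and 20 counts over all libraries, so these 3 members were not tested.

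RNA was sequenced from primary hepatocytes of C57BL/6J mice carrying loxP-flanked Yap and Taz alleles (Yap fl/fl; Taz fl/fl). At 7 to 8 weeks of age the mice received AAV8-TBG-Cre (Yap/Taz HepKO, here KO) or AAV8-TBG-Null (wild type, here WT), and both genotypes thus carried the floxed alleles, a ROSA26-LSL-tdTomato reporter and a virus. The TBG promoter is active in hepatocytes, so other cells of the preparation would keep both genes. Hepatocytes were isolated 10 days later and kept for 24 h on collagen-coated polyacrylamide hydrogels, soft (1 kPa) or stiff (20 kPa), with 2 libraries per group. The study's sources give the mice as female in one place and male in another. The libraries held 4818 to 8443 Xist counts and 0 counts of the Y-linked genes Ddx3y, Kdm5d, Eif2s3y and Uty, the pattern of female cells. The labels do not say whether replicates came from separate mice or cultures, so p-values measure the spread between these libraries, which may be technical. Library totals ran from 18324083 to 26442310 counts, and levels are given as CPM, counts per 1e+06 counts. The upper limit of a count of 0 (3 counts) was 0.113 to 0.164 CPM.

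The knockout was visible in its target genes. Yap1 stood at 99.8 and 95.5 CPM in WT soft, 140.5 and 135 in WT stiff, 29.2 and 31.8 in KO soft and 28.4 and 31.3 in KO stiff. Wwtr1, which encodes TAZ, stood at 42.5 and 41.5 CPM in WT soft, 63.9 and 65.2 in WT stiff, 16.0 and 16.6 in KO soft and 15.7 and 13.7 in KO stiff. Both were lower in each KO library than in each WT library.

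The start of the gene is where the TOP motif lies, and RefSeq start sites (GRCm38.p6) were matched to 62 of the 82 members, in 74 windows of 300 bases. A run of at least 6 pyrimidines that began with C within 5 bases of the listed start was present in 36.5% of the member windows and in 10.2% of all 32851 windows. The 30 bases around the listed start, which lies after the first 15 bases, are shown for 6 members described below, picked from the 27 windows that hold a run, with the run in capitals.
Rpl35a (chr16:33056467-33056496, plus strand): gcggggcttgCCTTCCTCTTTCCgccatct
Rpl35 (chr2:39005117-39005146, minus strand): cggccccgccCTTTCCTCTTTCTCTCgaac
Rpl18 (chr7:45718056-45718085, plus strand): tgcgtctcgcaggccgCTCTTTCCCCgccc
Rps2 (chr17:24720048-24720077, plus strand): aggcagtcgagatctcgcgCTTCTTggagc
Rplp2 (chr7:141447636-141447665, plus strand): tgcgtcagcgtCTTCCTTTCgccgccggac
Rpl22l1 (chr3:28805493-28805522, plus strand): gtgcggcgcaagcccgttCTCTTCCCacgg
Of the other motifs searched on both strands, CCGGAAG, the core that ETS factors such as GABP bind, was present in 35.1% of member windows and 8.86% of all windows. AAGATGGC, bound by YY1, was present in 10.8% and 2.75%, TATAAA in 9.46% and 13.6%, and GGGGCGGGG, bound by SP1, in 9.46% and 11.4%. These matches describe the letters of the windows and say nothing of binding in these cells.

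Ribosomal protein genes took the smallest share of the library in WT hepatocytes on the soft hydrogel. The 82 members held 3.42% and 3.36% of all counts in WT soft, 3.76% and 3.71% in WT stiff, 3.87% and 3.78% in KO soft and 3.68% and 3.82% in KO stiff. The 95% Wilson interval of each share reached at most 0.00843 percentage points to either side, which covers counting error only. The group means were 3.39% ± 0.0442, 3.73% ± 0.0350, 3.83% ± 0.0661 and 3.75% ± 0.100 (SD, n = 2), and WT soft lay below all other libraries. The KO stiff libraries overlapped both WT stiff and KO soft, whose libraries did not overlap each other. The small subunit genes held 1.33% ± 0.0345 of counts in WT soft and 1.45% ± 0.0125 in WT stiff, and the large subunit and stalk genes 2.07% ± 0.00965 and 2.28% ± 0.0225 (SD, n = 2). In bulk samples, fewer cells of a type and less RNA per cell cannot be told apart.

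**Figure D1:**
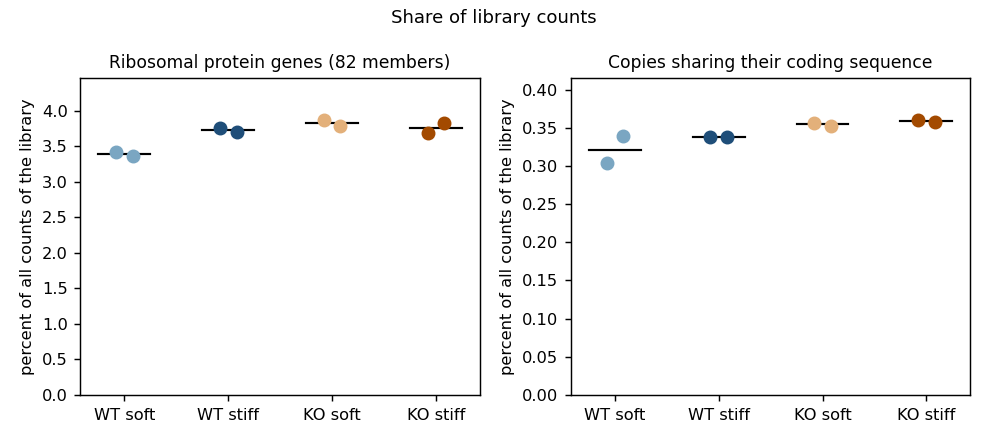
Percent of all counts of each library that fell on the 82 ribosomal protein genes (left) and on the rows that share their coding sequence (right). Each point is a library and each line the mean of the 2 libraries of a group. The WT soft libraries, at 3.36% and 3.42%, lie below the 6 others in the left panel.

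Members differed widely in level. Per length, as counts per kilobase of the deposited gene length scaled to the same total in each library over the tested genes (here TPM), the means of the members over the 8 libraries had a median of 615 and quartiles of 388 and 934. The highest level was that of Rplp1 at 5075 ± 393 TPM (SD, n = 8), followed by Rplp0 at 2071 ± 68.5, Rpl36 at 2042 ± 109, Rps15 at 1888 ± 119 and Rpl4 at 1817 ± 75.7. Rplp0 and Rpl36, and likewise Rps15 and Rpl4, did not differ beyond their spread, while Rplp1 stood clear of the rest. These ranks depend on the deposited gene lengths, which need not be those of the mRNAs in these cells. Rpl36, with 383 bases, stood at 287 CPM and 2042 TPM, and Rpl18, with 4043 bases, at 546 CPM and 368 TPM. The lowest were Rps10 at 2.48 ± 0.590 TPM and Rpl24 at 3.68 ± 4.12. Next came Rpl13a at 51.7 ± 3.89, Rpl22l1 at 70.3 ± 11.8 and Rpl21 at 70.7 ± 14.98. Neither Rps10 and Rpl24 nor Rpl22l1 and Rpl21 differed beyond their spread. Rps10, Rpl24 and Rpl13a encode core ribosomal proteins, and in the deposited table each of the 3 is overlapped on its own strand, over 76.9%, 98.7% and 88.6% of its span, by another row (Gm49804, Gm28037 and Gm45713) that has 0 counts in each library. They were the 3 members with more than 50% of their span overlapped in this way. How reads lying on both rows were counted is not given in the sources used here, and its part in these low levels was not tested.

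In WT hepatocytes the ribosomal protein genes were slightly higher on stiff than on soft, and most of them together. The median log2 fold change of the 79 members was 0.15, a rise of 10.8%, against -0.01 for all tested genes, and 73 members lay above 0 and 6 below. At an adjusted p under 0.05 (quasi-likelihood F test of edgeR, Benjamini-Hochberg over all tested genes), 46 members rose, where 21.1% of all tested genes did, and 0 fell, where 20.0% did. The 46 had log2 fold changes from 0.09 to 0.74 with a median of 0.18. Of them 27 encode 60S, 17 40S and 2 stalk proteins, out of 45, 31 and 3 tested members. With the study's further requirement of an absolute log2 fold change over 0.5, 1 member was called, Rpl17, where 19.3% of all tested genes were. Rpl17 lost this call without the second WT soft library (0.32, adjusted p = 0.123 from edgeR) or the first WT stiff library (0.38, adjusted p = 0.256). Genes other than the members with deposited lengths up to 1500 bases had a median of 0.05, and genes within the members' range of levels a median of -0.00262. Without the first WT stiff library 28 members passed the adjusted p, all higher, and without the first WT soft library 43 passed higher and 5 lower. The second WT soft and first KO stiff libraries were also left out together, a choice made after seeing the data, and the members' median was then 0.15. With 2 libraries per group, the values cannot show which library of a pair departed from the other.

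**Figure D2:**
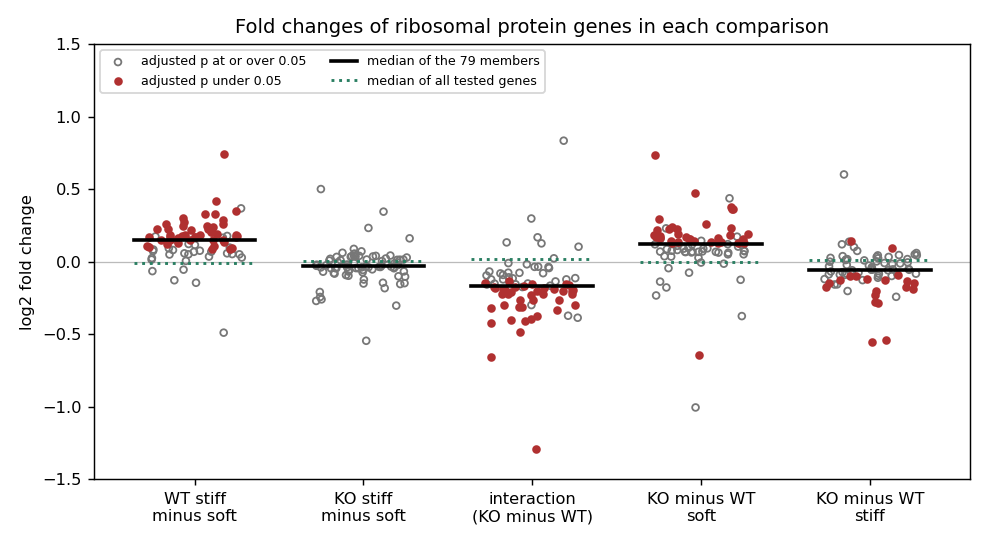
Log2 fold change (y axis) of the 79 tested ribosomal protein genes in the 5 comparisons (x axis), filled where the adjusted p was under 0.05. The solid line is the median of the members and the dotted line that of all 14279 tested genes. The members' median lies at 0.15 for stiffness in WT and at -0.03 in KO, and 4 points, all of Rpl24, lie outside the axis.

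The largest rises with stiffness in WT among members whose copies held under 10% of their counts were in both subunits. Rpl35a, a 60S protein mutated in Diamond-Blackfan anaemia, stood at 188 and 151 CPM in WT soft, 227 and 226 in WT stiff, 229 and 212 in KO soft and 167 and 207 in KO stiff. Both WT stiff libraries were above both WT soft libraries, whereas the KO stiff libraries lay below the KO soft libraries. Its log2 fold change with stiffness in WT was 0.42 (SE 0.088, adjusted p = 0.000896 from edgeR). Rps2, a 40S protein at the mRNA entry channel, stood at 991 and 945 CPM in WT soft, 1239.9 and 1223 in WT stiff, 1125 and 1064 in KO soft and 1008 and 1097 in KO stiff. WT stiff was the highest group and WT soft the lowest, with no overlap between these groups. The log2 fold change of Rps2 with stiffness in WT was 0.35 (SE 0.041, adjusted p = 1.79e-06 from edgeR). Rpl35, which sits at the exit of the peptide tunnel, stood at 229.6 ± 16.3 CPM in WT soft and 288 ± 6.02 in WT stiff (SD, n = 2) and rose by 0.33 on the log2 scale (adjusted p = 0.000475 from edgeR). Rpl18 stood at 482 ± 10.4 CPM and 604 ± 2.76 CPM (SD, n = 2), a rise likewise of 0.33 (adjusted p = 4.83e-05 from edgeR), and its span overlaps Sphk2 on the other strand.

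At the other end, the members with the lowest values in WT did not pass the test. Rpl24, a 60S protein, had a log2 fold change of -1.51 (adjusted p = 0.155 from edgeR) and Rps27a, which is made as a fusion with ubiquitin, of -0.49 (adjusted p = 0.205), and both had replicates far apart. Rpl24 stood at 0.385 and 2.67 CPM in WT soft, 0.434 and 0.559 in WT stiff, 0.585 and 0.846 in KO soft and 4.68 and 0.889 in KO stiff. Rps27a stood at 397 and 155 CPM in WT soft, 197 and 199 in WT stiff, 217 and 256 in KO soft and 405 and 194 in KO stiff. The first library stood far above the second in WT soft and in KO stiff, and the other 2 groups were closer together. Rpl21 (-0.15), Rpl39 (-0.13) and Rpl23a (-0.06) had adjusted p-values of 0.569, 0.0867 and 0.779 from edgeR. Rpl39, a small protein of the peptide exit tunnel, stood at 211 and 236 CPM in WT soft and 213 and 197 in WT stiff, which overlap.

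**Figure D3:**
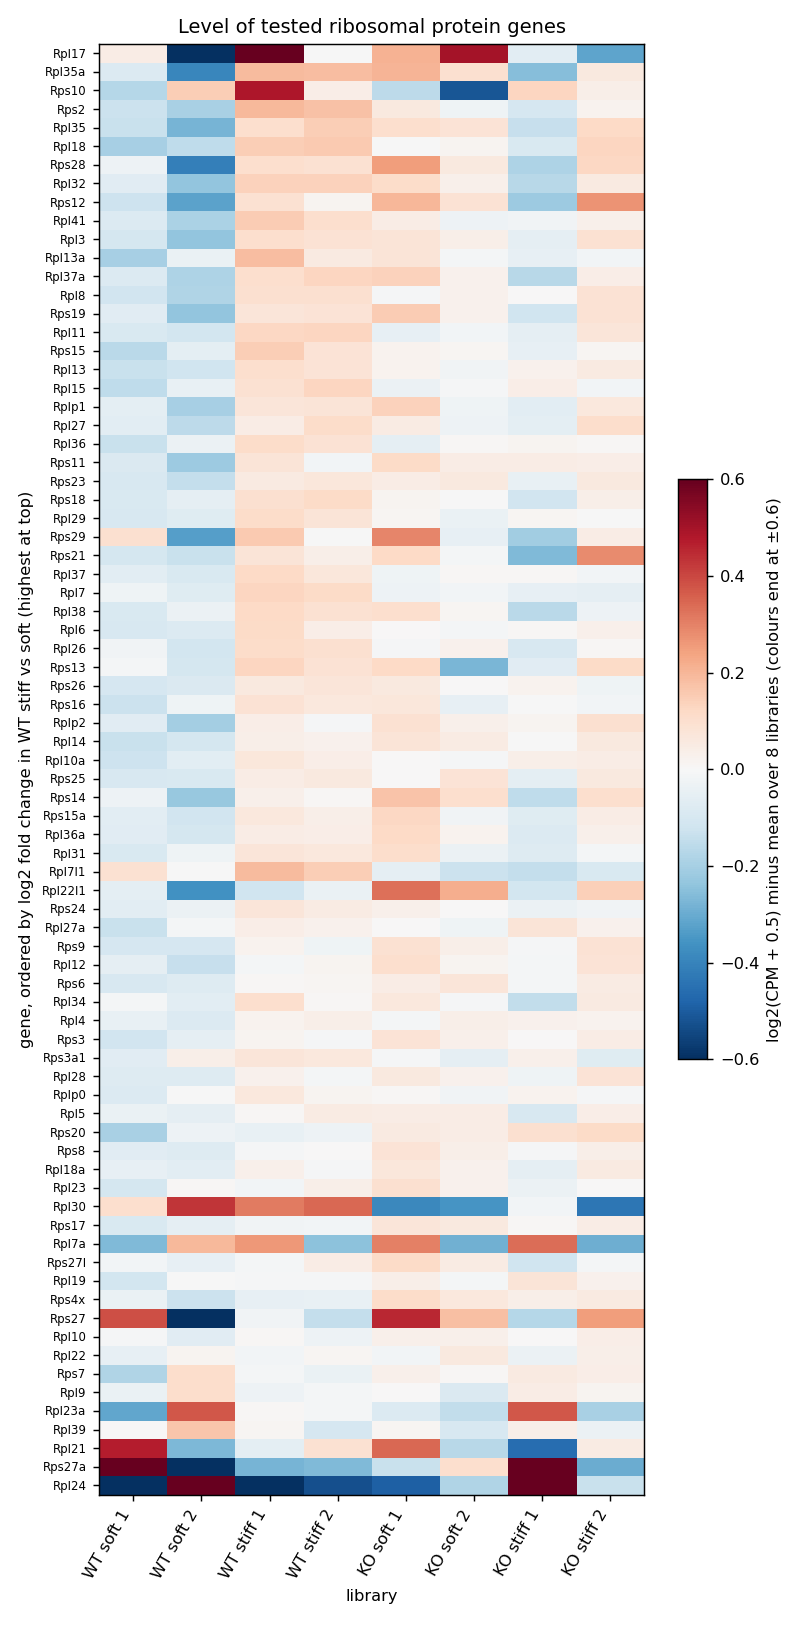
Level of 78 tested ribosomal protein genes (rows) in each library (columns), as log2(CPM + 0.5) minus the gene's mean over the 8 libraries, ordered by log2 fold change with stiffness in WT. Many rows are blue (below their mean) in the 2 WT soft libraries, and rows near both ends such as Rpl17, Rps27, Rps27a and Rpl24 differ between replicates.

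In KO hepatocytes no member passed the test for stiffness, and almost no other gene did. The median log2 fold change of the members was -0.03, against 0.01 for all tested genes, with 28 members above 0 and 51 below. At an adjusted p under 0.05, 0 of the 79 members passed by edgeR in either direction, where 0.0210% of all tested genes did, and with the fold requirement 0 were called, where the share of all tested genes was again 0.0210%. These counts of 0 are near the share of all tested genes and say little about the members. At an unadjusted p under 0.05 there were 1 higher and 7 lower, and DESeq2 also gave 0 at the adjusted p. Rps2, with a log2 fold change of -0.06 (SE 0.041), and Rpl18, with 0.01 (SE 0.051), show how close to 0 most members lay. Rpl35a had -0.24 (SE 0.087, adjusted p = 0.604 from edgeR).

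The difference between the genotypes in their response to stiffness was tested as an interaction term. Its median over the members was -0.17, against 0.02 for all tested genes, which means that members gained less, or lost more, with stiffness in KO than in WT. At an adjusted p under 0.05 by edgeR, 40 members had a lower response in KO, where 14.1% of all tested genes did, and 1, Rpl24, a higher one, where 15.3% did. The 40 had values from -1.29 to -0.13 with a median of -0.22. With the fold requirement 3 members were called, Rpl17 (-1.29) and Rpl35a (-0.66) lower and Rpl24 (3.49) higher, where 16.8% of all tested genes were called. Rpl24 passed the test neither without the second WT soft library (1.61, adjusted p = 0.332 from edgeR) nor without the first KO stiff library (1.85, adjusted p = 0.223), and it lost the call also without the first WT stiff (adjusted p = 0.0659) or first KO soft library (adjusted p = 0.0741). Rpl35a, at -0.37 (adjusted p = 1.26e-05 from edgeR), fell short of the fold requirement without the second WT soft and first KO stiff libraries together, and robust fitting called 0 members. For Rps2 the interaction was -0.40 (SE 0.058, adjusted p = 3.28e-05 from edgeR) and for Rpl35 it was -0.42 (SE 0.091, adjusted p = 0.00175 from edgeR). The count of 40 was 26 without the first WT stiff library, 19 without the first KO soft library and 23 without the first KO stiff library.

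On the soft hydrogel the members were slightly higher in KO than in WT. The median log2 fold change was 0.12, a rise of 8.65%, against -0.000314 for all tested genes. At an adjusted p under 0.05 by edgeR, 33 members were higher, where 7.48% of all tested genes were, and 1, Rpl30, was lower, where 10.9% were. With the fold requirement 2 members were called, Rpl17 higher and Rpl30 lower, where 6.67% of all tested genes were called. Without the second WT soft library neither kept the call, Rpl17 at 0.31 (adjusted p = 0.221 from edgeR) and Rpl30 at -0.47 (adjusted p = 0.000867), and Rpl17 also lost it without the second KO soft library (adjusted p = 0.197). The 33 had log2 fold changes from 0.13 to 0.74. Of them 17 encode 40S, 14 60S and 2 stalk proteins, out of 31, 45 and 3 tested members. Rpl22l1, a paralogue of Rpl22, was among the 33 at 0.48 (SE 0.090, adjusted p = 0.000867 from edgeR). Without the first KO soft library the members' median was 0.0880, and without the second it was 0.15. Such a fit leaves 1 library in that group, so it cannot show how far the count of 33 depends on either library. With scaling by library size alone 57 members passed higher.

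On the stiff hydrogel the members' median difference between KO and WT was -0.06, against 0.01 for all tested genes. At an adjusted p under 0.05 by edgeR, 18 members were lower in KO, where 25.7% of all tested genes were, and 3 were higher, where 25.4% were. With the fold requirement 3 were called, Rpl17 and Rpl30 lower and Rpl24 higher, where 28.7% of all tested genes were called. Rpl24 lost the call without the first KO stiff library (0.83, adjusted p = 0.458 from edgeR) or the first WT stiff library (adjusted p = 0.0689), Rpl30 without the second KO stiff library (-0.36, adjusted p = 0.00151). Rpl17 lost it without any of 4 libraries, with -0.20 (adjusted p = 0.551 from edgeR) without the first WT stiff library and adjusted p-values of 0.172, 0.0523 and 0.0502 without the second KO stiff, first KO soft and second KO soft library. Both shares of members lay below those of all tested genes. Scaling by library size alone gave 6 lower and 7 higher, and the count lower was 9 and 11 without the first and second WT stiff library and 7 and 29 without the first and second KO stiff library. Rps2 stood at 1232 ± 11.8 CPM in WT and 1052 ± 62.5 in KO (SD, n = 2), with -0.23 on the log2 scale (adjusted p = 0.000151 from edgeR). These comparisons share libraries with the stiffness comparisons, so their values are not independent of them.

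The stalk genes followed the members as a whole. Rplp1 stood at 889 and 806 CPM in WT soft, 976 and 977 in WT stiff, 1021 and 909.8 in KO soft and 888 and 967 in KO stiff. It rose with stiffness in WT by 0.20 on the log2 scale (SE 0.053, adjusted p = 0.00458 from edgeR), and the KO groups overlapped. Rplp2 stood at 399.5 and 364 CPM in WT soft, 431 and 417 in WT stiff, 446 and 427 in KO soft and 423 and 447 in KO stiff. It rose by 0.15 in WT (SE 0.047, adjusted p = 0.0154 from edgeR), and WT soft lay below the 6 other libraries. Rplp0, a common reference gene in quantitative PCR, was at 1225 ± 47.4, 1295 ± 30.7, 1255 ± 16.9 and 1266 ± 15.3 CPM in WT soft, WT stiff, KO soft and KO stiff (SD, n = 2). Its adjusted p-values from edgeR ran from 0.0689 for stiffness in WT to 0.951 for stiffness in KO, and none of its 5 comparisons passed.

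Some ribosomal proteins have paralogues, not all of which need take their place in the ribosome. Per length, Rpl7l1 reached 9.46% to 11.1% of the level of Rpl7 over the 8 libraries and Rpl22l1 22.5% to 37.6% of that of Rpl22. Such percentages depend on the deposited lengths of both genes. Rpl22l1 was higher in KO than in WT on the soft hydrogel (given above), at 48.6 and 39.3 CPM in WT soft, 46.6 and 49.4 in WT stiff, 63.9 and 59.1 in KO soft and 47.0 and 56.0 in KO stiff. The KO soft libraries were the highest, and the other 3 groups overlapped. Rpl22 itself was at 249 ± 8.32, 252 ± 3.62, 256 ± 9.67 and 252 ± 8.39 CPM in the same order (SD, n = 2), and none of its comparisons passed. Rpl7l1 was lower in KO than in WT on the stiff hydrogel, at 95.1 ± 2.37 against 116 ± 2.49 CPM (SD, n = 2), with -0.29 on the log2 scale (SE 0.053, adjusted p = 0.000182 from edgeR). Rpl7, at 749 ± 1.86 against 843 ± 5.93 CPM (SD, n = 2), was lower too, by -0.17 (SE 0.033, adjusted p = 0.000322 from edgeR). Rps27l, a p53 target, was above its parent Rps27 in each library, at 152% to 373% of the level of Rps27 per length. Rps27 shares coding sequence with a copy that also held counts, and whether reads were divided between them was not tested. Of the parents of the 3 untested members, Rpl3 rose with stiffness in WT by 0.26 (adjusted p = 0.000177 from edgeR), and Rpl10 (0.03) and Rpl39 (-0.13) did not pass.

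The coding sequence of these genes recurs in other places of the genome. With GENCODE vM21 transcripts, windows of 64 bases from the coding sequence of each member were looked up in all other genes, and 64 of the 82 members had over 50% of their windows in another gene. At least 20 windows were shared with 618 rows of the deposited table, assigned to 77 members, and 589 of these rows are processed pseudogenes, 18 transcribed processed pseudogenes and 11 protein-coding genes. No member shared as many windows with another member. These rows, here called copies, held 0.303% to 0.360% of the counts of a library and 8.15% to 9.17% of the counts on members and copies together. The copies' share of a family had a median of 2.65%, exceeded 10% in 20 families and 50% in 5, which were those of Rps10 (98.4%), Rpl24 (79.7%), Rps3a1 (77.1%), Rpl21 (68.4%) and Rpl17 (56.9%).

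Stretches of 60 coding bases (GRCm38) show how alike a gene and its copy are, for 3 pairs whose counts are set beside each other below and for Rps10, where nearly all counts fell on the copy. Mismatches, where there are any, are in capitals.
Rpl30 (chr15:34442721-34442780, minus strand): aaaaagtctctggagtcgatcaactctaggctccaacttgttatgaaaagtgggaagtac
Gm12191 (chr11:49678977-49679036, minus strand): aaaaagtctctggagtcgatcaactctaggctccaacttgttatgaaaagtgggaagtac
Rps27 (chr3:90212985-90213044, minus strand): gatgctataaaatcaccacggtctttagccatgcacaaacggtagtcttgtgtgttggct
Rps27rt (chr9:114982533-114982592, minus strand): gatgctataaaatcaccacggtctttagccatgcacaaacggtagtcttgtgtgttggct
Rps10 (chr17:27634184-27634243, minus strand): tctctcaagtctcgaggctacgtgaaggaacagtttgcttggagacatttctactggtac
Rps10-ps2 (chr16:20822431-20822490, minus strand): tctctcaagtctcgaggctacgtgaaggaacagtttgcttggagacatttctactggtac
Rps27a (chr11:29545970-29546029, minus strand): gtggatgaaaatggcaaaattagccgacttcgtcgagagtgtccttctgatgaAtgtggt
Rps27a-ps2 (chr9:83409981-83410040, plus strand): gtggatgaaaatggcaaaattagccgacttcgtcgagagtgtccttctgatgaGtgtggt
The first 3 pairs do not differ over these bases, and the last differs at 1 base. The sequenced reads are longer than these stretches and than the windows, so shared windows do not show that a whole read or read pair fits both genes, which was not tested.

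For Rpl17, a 60S protein, the member and its largest copy moved in opposite ways between libraries. Rpl17 stood at 222 and 106 CPM in WT soft, 339 and 215 in WT stiff, 249 and 304 in KO soft and 206 and 173 in KO stiff. Rpl17-ps10 stood at 147 and 327, 127 and 189, 141 and 94.8, and 209 and 228 CPM in the same order. The library with the least Rpl17 had the most Rpl17-ps10, and that with the second most Rpl17 the least. With all copies added, the family ran only from 489 to 573 CPM over the 8 libraries. Its log2 fold change with stiffness in WT was then 0.09 (SE 0.048, adjusted p = 0.147 from edgeR), against 0.74 (SE 0.223, adjusted p = 0.0123) for Rpl17 alone, and the interaction was -0.08 (adjusted p = 0.446) against -1.29 (adjusted p = 0.0045). None of the 4 comparisons in which Rpl17 had been called passed for the family. DESeq2 did not call Rpl17 alone in any of them, with adjusted p-values from 0.131 to 0.338.

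For Rpl30, a 60S protein, the counts on the member and on its largest copy went with genotype. Rpl30 stood at 214 and 268 CPM in WT soft, 247 and 253 in WT stiff, 152 and 156 in KO soft and 197 and 148 in KO stiff, so that each KO library lay below each WT library. Gm12191, a processed pseudogene on another chromosome, stood at 38.5 and 46.9 CPM in WT soft, 17.7 and 12.8 in WT stiff, 111 and 105 in KO soft and 105 and 96.0 in KO stiff, the reverse order. The family was at 261 and 318, 287 and 287, 279 and 275, and 307 and 259 CPM. KO against WT, the log2 fold change of Rpl30 was -0.64 on soft (SE 0.099, adjusted p = 0.000108 from edgeR) and -0.54 on stiff (SE 0.099, adjusted p = 0.000174). For the family it was -0.06 (SE 0.071, adjusted p = 0.648) and -0.02 (SE 0.071, adjusted p = 0.849). Thus both calls of Rpl30 were lost when the copies were added.

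In other families the member and the copy differed between replicates. Rps27, a 40S protein with a zinc finger, stood at 206 and 82.1 CPM in WT soft, and its retrotransposed copy Rps27rt at 40.8 and 173. In KO stiff, Rps27 stood at 139.8 and 188 CPM and Rps27rt at 99.2 and 27.2. The Rps27 family ran from 215 to 255 CPM over the 8 libraries, and the largest log2 ratio between replicates was 0.217 for the family, against 1.33 for Rps27. Rpl23a, a 60S protein at the tunnel exit, stood at 161 and 259 CPM in WT soft and 259 and 175 in KO stiff, where its copy Gm10335 stood at 28.8 and 6.89, and 10.8 and 34.9. For Rps10, 1.29 to 3.09 CPM fell on the member and 95.02 to 139 on Rps10-ps2. For Rps27a the copies held 4.73% of the counts, with the family at 402 and 169 CPM in WT soft and 416 and 206 in KO stiff, and its largest log2 ratio between replicates was 1.25, against 1.36 without the copies. The second WT soft and first KO stiff libraries were thus alike in how counts lay between Rps27 or Rpl23a and its copy, and opposite to each other in Rps27a.

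**Figure D4:**
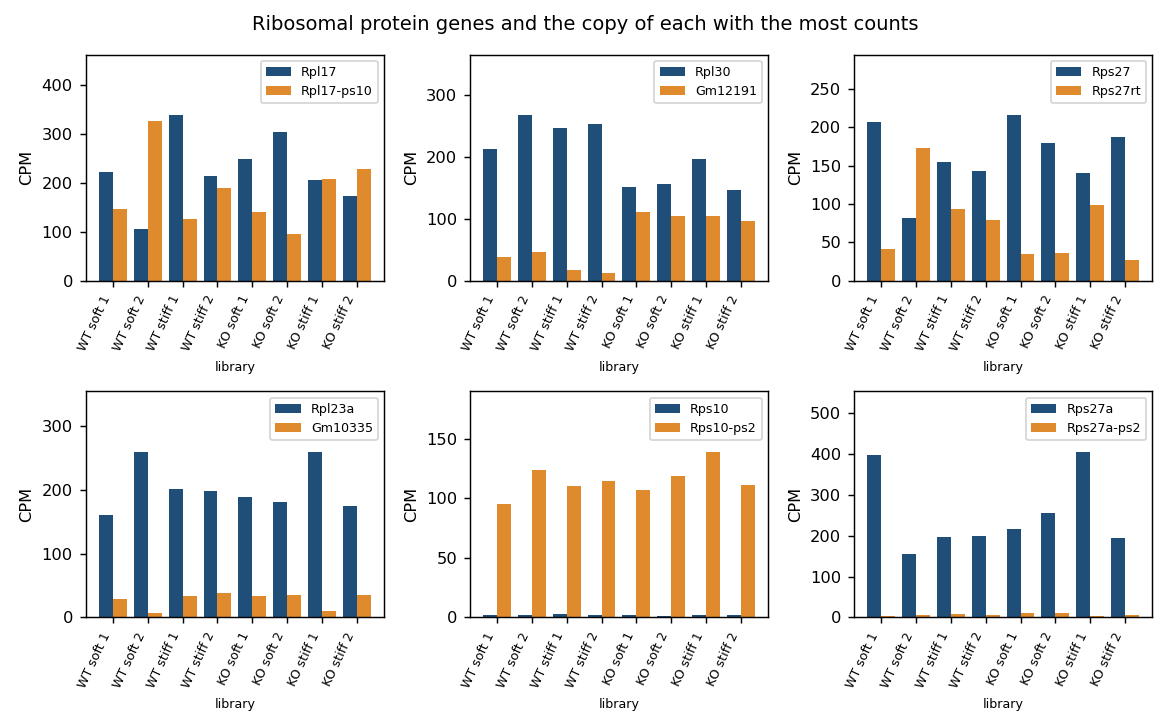
CPM (y axis) of 6 ribosomal protein genes (blue) and, for each, the copy with the most counts (orange) in the 8 libraries (x axis). For Rpl17 and Rps27 the library with the lowest member has the highest copy, for Rpl30 the KO libraries have a lower member and a higher copy than the WT libraries, for Rps10 nearly all counts fall on the copy, and for Rps27a the copy is small.

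Adding the copies left the shift of the members as a whole where it was and drew the most extreme genes closer to the rest. In WT stiff against soft the median of the families was 0.14, against 0.15 for the members alone, while the SD over genes was 0.133 against 0.234, and 45 families passed the adjusted p higher and 0 lower by edgeR. The interaction had a median of -0.18 with 38 families lower and 1 higher, and an SD over genes of 0.225 against 0.470. These SDs weigh extreme genes heavily, above all Rpl24, which went from -1.51 to -0.50 in WT and from 3.49 to 1.23 in the interaction. The largest log2 ratio between replicates of a gene had a median of 0.124 over the members and 0.120 over the families. KO against WT on soft had a median of 0.13 with 38 families higher and 0 lower. With the fold requirement the calls left were Rpl35a and Rpl24 in the interaction and Rpl24 in KO against WT on stiff, and 0 families were called in WT stiff against soft or KO against WT on soft. The Rpl24 family was at 4.93 and 9.16 CPM in WT soft, 4.73 and 4.98 in WT stiff, 6.09 and 4.82 in KO soft and 12.3 and 5.88 in KO stiff, and rested on 1 library in each of 2 groups. Rps3a1, which did not pass as a member (0.08, adjusted p = 0.218 from edgeR), passed as a family (0.16, adjusted p = 0.00094 from edgeR). Adding the copies was chosen after the data had been seen.

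**Figure D5:**
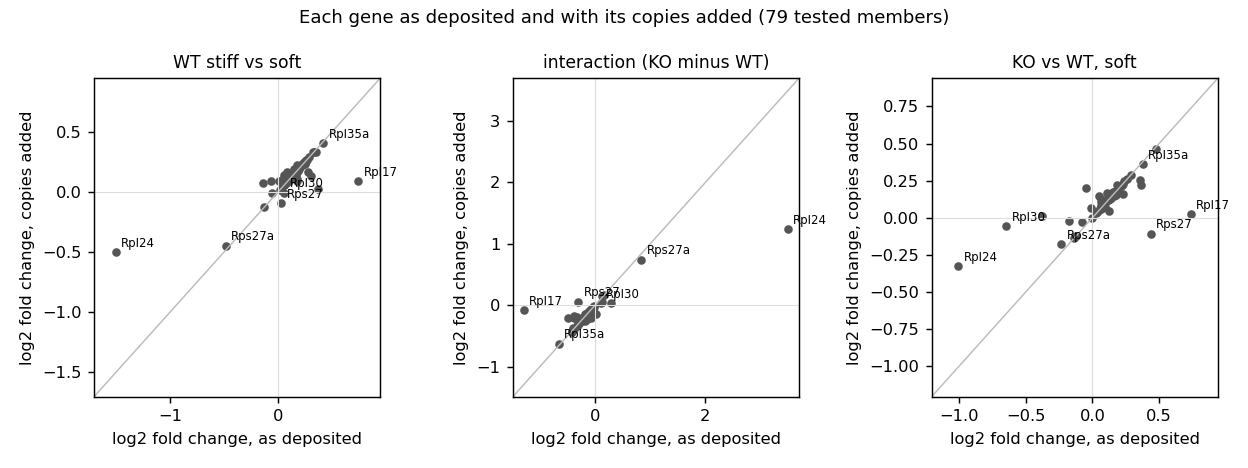
Log2 fold change of each of the 79 tested genes as deposited (x axis) and with its copies added (y axis) in 3 comparisons, with the line of equal values in grey. Rpl17 and Rpl30 move to near 0 on the y axis, Rpl35a stays on the line, and Rpl24 keeps part of its value.

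Genes that make or regulate ribosomes were examined as lists. Among ribosomal protein genes outside the naming form, Rpsa (0.11) and Fau (0.18) rose with stiffness in WT, and Rpl36al fell (-1.57, adjusted p = 0.01 from edgeR) at levels of 0.305 to 1.33 CPM. Of 38 genes of rRNA synthesis and ribosome assembly, 14 rose and 2 fell in WT with stiffness at the adjusted p, where 21.1% and 20.0% of all tested genes did, with a median of 0.11. In KO 0 passed by edgeR, where 0.0210% of all tested genes did, so that the count says little about these genes. Nhp2, a component of box H/ACA particles, rose from 105 and 104 CPM in WT soft to 154 and 156 in WT stiff, a log2 fold change of 0.57 (adjusted p = 5.42e-08 from edgeR). On stiff, 22 of the 38 were lower in KO than in WT and 3 higher, where 25.7% and 25.4% of all tested genes were, with Dkc1, the pseudouridine synthase of the same particles, lowest at -0.80 (adjusted p = 2.53e-08 from edgeR). On soft, 7 were lower and 2 higher in KO, where 10.9% and 7.48% of all tested genes were, with a median of -0.09, while the ribosomal protein genes' median was 0.12.

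Of 18 translation factors and other TOP mRNAs, 9 rose and 4 fell with stiffness in WT, against the same 21.1% and 20.0% of all tested genes, and the median was 0.09. The count that fell is near that background. Hnrnpa1, an RNA-binding protein, rose most at 0.60 (adjusted p = 2.07e-08 from edgeR) and Eif4b, an initiation factor, fell most (-0.25, adjusted p = 2.23e-05). Of 18 genes of the mTORC1 pathway and TOP mRNA binding, 6 fell and 0 rose in WT, against 20.0% and 21.1% of all tested genes, with Deptor, an inhibitor of mTOR, lowest at -1.06 (adjusted p = 8.66e-12 from edgeR). Deptor stood at 105 and 105 CPM in WT soft, 49.8 and 51.0 in WT stiff, 138 and 137 in KO soft and 139 and 137 in KO stiff, so that WT stiff was the lowest group. Myc, a transcription factor that acts on ribosome genes, rose with stiffness in WT by 0.48 (adjusted p = 5.79e-07 from edgeR) and was lower in KO, with log2 fold changes of -0.74 on soft (adjusted p = 1.05e-08 from edgeR) and -1.09 on stiff (adjusted p = 5.11e-12). Of 77 tested mitochondrial ribosomal protein genes, which are nuclear genes for a separate ribosome, 23 rose and 2 fell with stiffness in WT, where 21.1% and 20.0% of all tested genes did, with a median of 0.14. Mrpl33 rose most among them, by 1.14 (adjusted p = 2.3e-10 from edgeR). In KO 0 of the 77 passed by edgeR, where 0.0210% of all tested genes did, so that this count says little as well.

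Other measures also moved with the groups. The 7 hepatocyte markers summed to 86076 to 86852 CPM of the library total in WT soft, 88632 to 90219 in WT stiff, 62085 to 62232 in KO soft and 61583 to 61787 in KO stiff. With stiffness in WT, 5 of the 7 fell and 1, Alb, rose at the adjusted p, where 20.0% and 21.1% of all tested genes did. In KO against WT, 3 were higher and 3 lower on soft, where 7.48% and 10.9% of all tested genes were. On stiff 5 were higher and 2 lower, where 25.4% and 25.7% were. The sums, in which abundant genes weigh most, thus do not give the direction of single markers. The 6 endothelial markers summed to 51.0 to 56.3, 35.9 to 36.3, 70.2 to 71.0 and 71.3 to 75.2 CPM in WT soft, WT stiff, KO soft and KO stiff. The 8 markers of Kupffer cells and macrophages summed to 65.5 to 66.2, 46.5 to 50.5, 95.4 to 98.7 and 95.2 to 95.6 CPM in the same order. The 8 stellate cell and fibroblast markers summed to 24.7 to 25.5, 19.1 to 19.9, 36.2 to 37.3 and 38.2 to 40.2 CPM, and the 6 cholangiocyte markers to 539 to 573, 586 to 589, 352 to 354 and 326 to 338 CPM. Single markers of these lists differed in direction. With stiffness in WT, log2 fold changes ran from -1.53 (Pdgfrb) to 0.78 (Col1a1) in the stellate list. In the cholangiocyte list they ran from -0.37 (Epcam) to 3.30 (Krt19), and in KO against WT on stiff from -4.87 (Krt19) to 0.84 (Epcam). Cftr, of the cholangiocyte list, and Cd3e, of the 4 lymphocyte markers, had 0 counts in each library, and the lymphocyte markers summed to at most 0.189 CPM and the 3 erythroid markers to at most 1.62. The part of these cells in the results on ribosomal protein genes was not tested. Mitochondrially encoded genes took 2.75% to 3.68% of counts, least in WT stiff, and their part was not tested either.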

How the data were processed

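The authors aligned paired-end reads of polyadenylated RNA with HISAT2 (2.0.5), counted them per gene with featureCounts and deposited raw counts for 8 libraries, with gene positions and lengths. The genome build is given as mm9 in the submitters' processing notes. Only 1 of the 82 members has the same start and end in GENCODE vM21 (GRCm38) as in the deposited table. This cannot test the label, since GRCm38 is another build than mm9. No annotation that matches the deposited positions was at hand, so they are not printed. How multi-mapping reads and strand were counted is not given in the sources used here.

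From these counts, edgeR 4.0.16 with limma 3.58.1 under R 4.3.3 ran filterByExpr by group, TMM factors (0.978 to 1.02), glmQLFit on all 8 libraries with a term per group (4 residual degrees of freedom) and glmQLFTest for 5 comparisons. CPM is the count over the library's tested total and TMM factor, and the marker sums are CPM of the raw total. A call needed both an adjusted p below 0.05 and a log2 fold change beyond 0.5 in size. The SE is the log2 fold change over the square root of the F statistic. Replicates differed by more than counting noise (chi-square per degree of freedom 2.62 to 5.45 over all genes, and over the members 87.8 in WT soft, 13.2 in WT stiff, 21.2 in KO soft and 62.4 in KO stiff). This measure grows with the number of counts, so it does not compare the spread of the abundant members with that of all genes. Copies are rows that share at least 20 coding windows of 64 bases with a member, each added to the member it matched best, and 1 of them, Wdr89, encodes a protein of its own. Promoter windows came from RefSeq.

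The members and lists were chosen with earlier results of these data known. Named are the stalk genes, members with paralogue names and their parents, members called in any comparison, the 5 highest and lowest in WT stiff against soft and in level, the 5 with the largest copy share, untested members and list extremes. Rpl18 was added after its values were seen. Alternatives were DESeq2 1.42.0, other scalings, filters and thresholds, a replicate term, robust fitting, fits of 4 libraries, added copies and each library left out. The steps were tested on simulated data. Some genes are not reported by name here. Figures used matplotlib 3.10.9 in Python 3.11.15.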

Additional observations from a re-analysis of the deposited data

Results flagged for a closer look

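The effect of stiffness differed between the genotypes for 3 members by the interaction term of edgeR with the fold requirement. Rpl17 had a log2 difference of -1.29, which was -0.08 (adjusted p = 0.446) with its copies added. Rpl35a had -0.66 (adjusted p = 0.000513 from edgeR), and -0.63 (adjusted p = 0.000118) with its copies added. Without the second WT soft and first KO stiff libraries it was -0.37, with an adjusted p of 1.26e-05, and no longer met the fold requirement. Rpl24 had 3.49 (adjusted p = 0.0199 from edgeR) on 9 to 100 counts per library, and -0.03 (adjusted p = 0.989) without those 2 libraries.

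Counts on copies of the members, which the comparisons of members do not include, made up at least 0.303% of the counts of each library.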

How the results depend on the processing

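The median log2 fold change of the members kept its sign in each of the 5 comparisons under the alternatives run. For the comparisons as a whole 170 alternative values stayed near the main value and 50 moved. For named members 565 kept direction and side of the threshold, 55 lost and 13 gained the call and 21 changed sign. Values that moved are as follows, and the cause was not tested except where fewer or more genes or libraries entered by construction.

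Members called in WT stiff against soft (1) were 0 with DESeq2, robust empirical Bayes, an absolute log2 fold change over 1, named pseudogene rows added or all copies added, 2 without a low-count filter and 46 without a minimum fold. In KO stiff against soft (0) they were 2 without the filter, 1 with only the 4 libraries compared and 1 without the second WT soft and first KO stiff libraries together. For the interaction (3) they were 1 with DESeq2, 5 without the filter, 41 without a minimum fold and 0 with robust fitting. In KO against WT on soft (2) they were 1 with DESeq2, with named pseudogene rows added and without the 2 libraries, 34 without a minimum fold, and 0 with a log2 fold change over 1, robust fitting or all copies added. In KO against WT on stiff (3) they were 1 with DESeq2, library size only, a log2 fold change over 1 or all copies added, 21 without a minimum fold and 0 with robust fitting. With each library left out in turn the counts ran from 0 to 5, 0 to 0, 2 to 13, 1 to 7 and 1 to 4 in the order WT stiff against soft, KO stiff against soft, interaction, KO against WT on soft and on stiff, the 13 without the second KO stiff library.

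Scaling by library size alone gave a median of 0.17 (from 0.12) in KO against WT on soft and -0.00167 (from -0.06) on stiff. With libraries left out in the same ways the medians ran from 0.13 to 0.17, -0.0733 to -0.00259, -0.20 to -0.14, 0.0880 to 0.15 and -0.0998 to -0.0135 in the same order. The share of counts rose to 3.53%, 3.87%, 3.97% and 3.90% in WT soft, WT stiff, KO soft and KO stiff with named pseudogene rows added, and to 3.71%, 4.07%, 4.18% and 4.11% with all copies.

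In WT stiff against soft some members changed sign. Without the second WT soft and first KO stiff libraries together, a choice made after seeing the data, the values were -0.00580 for Rpl10, -0.0212 for Rpl22l1, -0.00887 for Rps4x, 0.31 for Rpl23a, 0.36 for Rpl24 and -0.47 for Rps27, and -0.0300 for Rpl24 in the interaction. With named pseudogene rows added Rpl21 was 0.0524, and with all copies, also chosen after seeing the data, Rpl21 was 0.0705, Rpl23a 0.0853 and Rps27 -0.0953. With 1 library left out, or those 2, the log2 fold changes ran from -0.00580 to 0.0627 for Rpl10, from -0.46 to 0.30 for Rpl21, from -0.0128 to 0.0522 for Rpl22, from -0.0212 to 0.29 for Rpl22l1, from -0.37 to 0.32 for Rpl23a, from -2.41 to 0.36 for Rpl24, from -0.47 to 0.86 for Rps27, from -1.01 to 0.36 for Rps27a and from -0.00887 to 0.0870 for Rps4x, and from -0.0300 to 4.38 for Rpl24 in the interaction.

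A replicate block left the calls of members at 1, 0, 3, 2 and 3. The labels do not say whether same-numbered libraries belong together. Their deviations had correlations between -0.101 and 0.0424 over all tested genes and between -0.589 and 0.314 over the members. Such correlations cannot settle whether libraries shared a mouse or culture.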

Other observations

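Members differed between replicates by more than a log2 ratio of 0.25 in 14 cases in WT soft, 4 in WT stiff, 8 in KO soft and 16 in KO stiff, and families with copies added in 9, 1, 4 and 9. Over the 79 members, the deviations of the first library from its group mean in WT soft and in KO stiff had a correlation of -0.589, and over the families -0.184. This is across genes, which share libraries and, within families, sequence, and is given as a description. For the genes of the members' range of levels, the interquartile range of the log2 ratio between replicates was 0.119 in WT soft, 0.0528 in WT stiff, 0.0657 in KO soft and 0.0929 in KO stiff. For the members it was 0.163, 0.0551, 0.0833 and 0.147.

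Many ribosomal protein genes host small nucleolar RNAs in their introns. Among the deposited rows, 29 members held 55 such rows on their own strand, of which 25 had a count, at most 89 over the 8 libraries. Rows on the other strand overlapped 22 members.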
